A study of Homo sapiens with 9 samples.

Results

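The 7 genes of the fibulin family in the deposited counts are EFEMP1, EFEMP2, FBLN1, FBLN2, FBLN5, FBLN7 and HMCN1, out of 60609 gene identifiers. They were chosen by family name, by matching GENCODE symbols to Ensembl identifiers, and the family was looked at because EFEMP1 had been seen lower in both NCBP2 clones of these libraries. The levels of EFEMP1 against vector are therefore a description here, with no test. RNA was sequenced after ribosomal RNA removal from U2-OS, an established human osteosarcoma line. The groups were 3 libraries (replicates A, B and C) of the A1 clone and 3 of the A4 clone, which both overexpress the cap-binding protein NCBP2, and 3 libraries of cells with an empty vector, each from a clone of its own. No drug treatment, time point or knockdown is named for any group. Each NCBP2 group is a single clone, so what is particular to a clone and what NCBP2 does cannot be told apart within it. The labels do not say whether the 3 libraries of an NCBP2 clone were separate cultures, so p-values measure only the spread between these libraries.

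Fibulins are secreted glycoproteins of the extracellular matrix. They share a row of calcium-binding EGF-like modules that ends in a fibulin-type domain. The short fibulins, encoded by EFEMP1, EFEMP2 and FBLN5, are known from elastic fibres, where EFEMP2 and FBLN5 bring lysyl oxidases and tropoelastin onto microfibrils. FBLN1 and FBLN2 encode longer fibulins found in basement membranes and elastic fibres, FBLN7 encodes a cell adhesion protein, and HMCN1 encodes hemicentin, a very long protein of immunoglobulin repeats that carries the same C-terminal modules.

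Counts on the sense strand of genes ranged from 29234022 to 50554080 per library. Replicate A of the A1 clone had the fewest, with 21823 genes detected against 25390 to 29787 in the other libraries, so values that leaving it out moves most are also given without it. NCBP2 itself measured 298.9 to 348.4 CPM (counts scaled to the size of the library) in the A1 clone, 456.2 to 1035 CPM in the A4 clone and 90.6 to 98.4 CPM in the empty-vector libraries. Of 8 osteoblast lineage markers, 4 (ALPL, COL1A1, RUNX2 and SPARC) averaged above 1 CPM, while IBSP had 0 counts in every library. The 8 summed to 2168 to 2762 CPM with A1, 3024 to 3736 CPM with A4 and 3063 to 3942 CPM with vector, so the A1 sum lay under the rest. Of the 4 markers, only COL1A1 did so by itself, at 532.2 to 992.4 CPM in the A1 clone and at least 1090 CPM elsewhere. In the A1 clone SPARC overlapped with the A4 clone, ALPL with vector and RUNX2 with both. TERT, which this telomerase-negative line is known to lack, also had 0 counts throughout. The 4 epithelial markers summed to 4.72 to 6.21 CPM in the A1 clone, 6.40 to 9.29 CPM in the A4 clone and 8.27 to 10.8 CPM in the empty-vector libraries, the 3 blood markers to at most 2.01 CPM and the 3 endothelial markers to at most 2.87 CPM in any library. The mesenchymal marker VIM measured 1519 to 1757 CPM in the A1 clone, 1302 to 1620 CPM in the A4 clone and 2004 to 2082 CPM in the empty-vector libraries. VIM thus lay lower in all 6 NCBP2 libraries, as EFEMP1 did. So did the epithelial marker CDH1, at 0.598 to 2.09 CPM with NCBP2 and 2.73 to 3.63 CPM with vector. KRT5 did too, at 0.108 to 1.05 CPM and 1.31 to 3.12 CPM, while EPCAM and KRT14 overlapped with vector. Groups failed to overlap for 3.74% of all genes in this comparison. VIM was not called there (log2 fold change -0.43, adjusted p 0.501 by edgeR). The part of these marker levels in the EFEMP1 difference was not tested.

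EFEMP1 was lower in both NCBP2 clones, by the choice of the gene. EFEMP1 (ENSG00000115380.20, chromosome 2, 55865967 to 55924139, minus strand, GRCh38) encodes fibulin-3, a matrix protein known for binding the metalloproteinase inhibitor TIMP3. In the A1 clone it measured 66.9, 55.3 and 55.5 CPM (replicate A, then B, then C, as in all values by library here). In the A4 clone the values were 53.3, 59.5 and 55.8 CPM. The empty-vector libraries had 176.6, 120.6 and 132.6 CPM. The 6 NCBP2 libraries lay close together, and the lowest vector library was well above the highest of them. The mean was 59.2 CPM ± 6.63 (SD, n = 3) in the A1 clone, 56.2 CPM ± 3.12 (SD, n = 3) in the A4 clone and 143.3 CPM ± 29.5 (SD, n = 3) in the empty-vector libraries. In RNA from whole cultures, fewer cells that express a gene and less RNA per cell cannot be told apart. The NCBP2 clones held 41.3% and 39.2% of the vector mean. Over the 6 NCBP2 libraries, from 2 clones, the coefficient of variation was 8.55%, and over the 3 vector clones it was 20.6%. The first includes spread within a clone and the second is spread between clones, so they are not comparable.

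On edgeR's scale the log2 fold change of EFEMP1 was -1.27 (SE 0.182) in the A1 clone and -1.35 (SE 0.183) in the A4 clone against vector. For the 6 NCBP2 libraries together it was -1.31 (SE 0.147). Without replicate A of the A1 clone, the A1 value was -1.36. Both comparisons use the same 3 vector libraries. As background to this choice of gene, edgeR called 0.0277% of the 21682 tested genes lower in the A1 clone and 0.0922% lower in the A4 clone at a Benjamini-Hochberg adjusted p under 0.05. All 3 libraries of a clone lay under all 3 vector libraries for 8.06% of genes in the A1 clone and for 5.86% in the A4 clone. Between the clones EFEMP1 differed by -0.08 (SE 0.180), with overlapping libraries. This too is a description, since the gene was chosen as low in both. Without replicate A of the A1 clone this difference was 0.019.

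**Figure D1:**
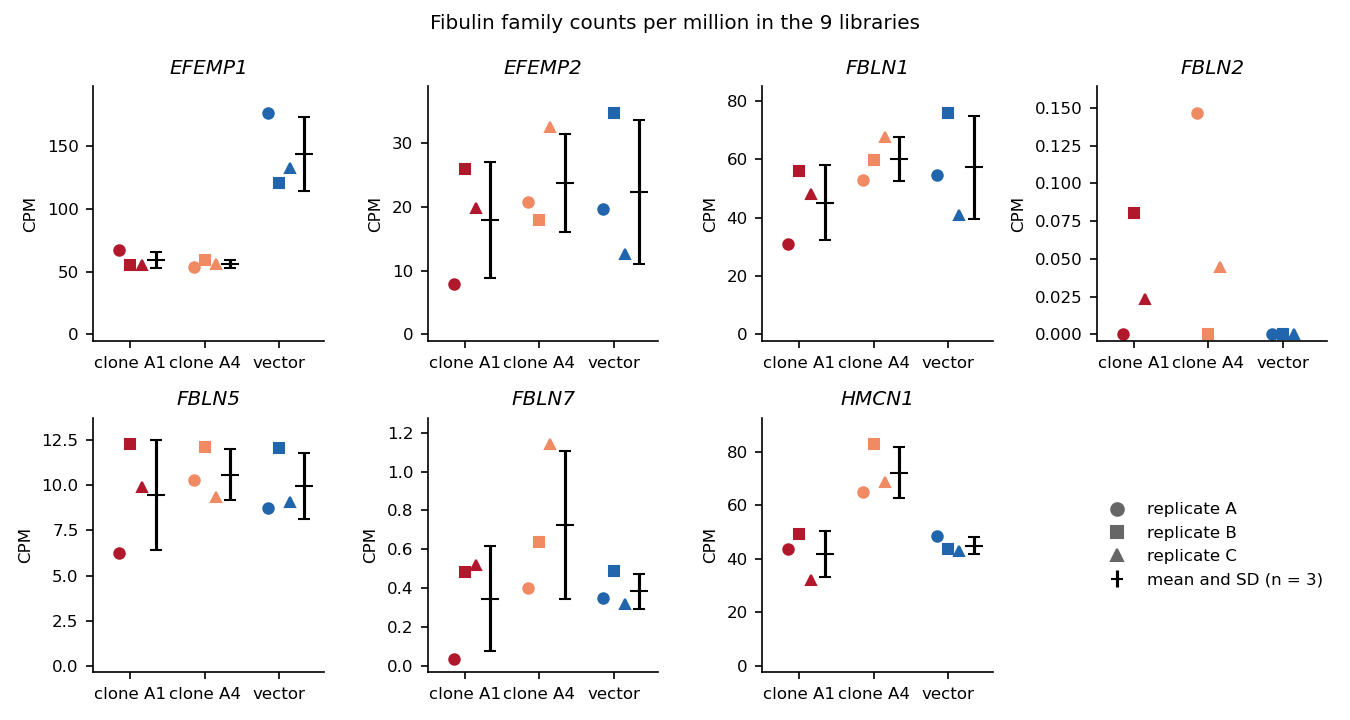
CPM (linear axis) of the 7 fibulin genes in the A1 clone, the A4 clone and vector libraries, 1 point per library with the replicate letter as its shape, and black marks for the mean and SD of 3 libraries (none for FBLN2, which had too few counts). EFEMP1 lay at 53.3 to 66.9 CPM in the NCBP2 libraries and at 120.6 to 176.6 CPM in the empty-vector libraries, and HMCN1 at 65.0 to 82.9 CPM in the A4 clone, above the other groups.

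Few reads came from the strand opposite to EFEMP1, where no other annotated gene overlaps it. Their share is a description, since its denominator is mostly the EFEMP1 counts that the choice used. Opposite-strand counts were 50 of 6369 in the A1 clone (0.785%, 95% Wilson interval 0.596 to 1.03%), 57 of 7700 in the A4 clone (0.740%, 0.572 to 0.958%) and 125 of 19894 in the empty-vector libraries (0.628%, 0.528 to 0.748%). Such intervals cover counting error only, since several reads can stem from 1 molecule. Averaged over libraries, the share was 0.781% ± 0.497 (SD, n = 6) with NCBP2 and 0.614% ± 0.113 (SD, n = 3) with vector. The ranges overlapped, at 0.314 to 1.60% and 0.531 to 0.743%.

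Per length of exon sequence, EFEMP1 was the most abundant fibulin transcript in every group. Levels between genes are compared as CPM per kilobase of merged exons in GENCODE release 44. EFEMP1 stood at 36.2 ± 7.44 in the empty-vector libraries, 14.95 ± 1.67 in the A1 clone and 14.2 ± 0.787 in the A4 clone (mean CPM per kilobase ± SD, n = 3 each). FBLN1 came second in each group, at 7.86 ± 2.43, 6.20 ± 1.75 and 8.27 ± 1.03 CPM per kilobase in the same order. The libraries of EFEMP1 and FBLN1 did not overlap in any group. EFEMP2 followed at 4.14 ± 2.10, 3.32 ± 1.70 and 4.39 ± 1.43 CPM per kilobase, then HMCN1 at 2.40 ± 0.160, 2.22 ± 0.461 and 3.85 ± 0.503, and FBLN5 at 1.59 ± 0.291, 1.51 ± 0.487 and 1.69 ± 0.228. EFEMP2 and HMCN1 overlapped in all 3 groups, so their order is not resolved, and neither is that of FBLN1 and EFEMP2 in the A1 clone and vector nor that of HMCN1 and FBLN5 in the A1 clone. FBLN7, at 0.0525 to 0.110 CPM per kilobase by group mean, and FBLN2 stood far under the other 5. Of the summed CPM per kilobase of the family, EFEMP1 made up 58.9 to 74.6% in the empty-vector libraries and 40.5 to 45.4% in the A4 clone. In the A1 clone the share was 44.8% and 50.6% in replicates B and C but 65.0% in replicate A, where FBLN1, EFEMP2, FBLN5 and FBLN7 were all at their lowest.

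None of the other fibulins passed the test against vector. Of the 7 genes, 6 passed the filter on low counts, all but FBLN2. Leaving EFEMP1 aside, 0 of 5 were called by edgeR in the A1 clone (0.0646% of all tested genes were), 0 of 5 in the A4 clone (0.115%) and 0 of 5 for the 6 NCBP2 libraries together (0.0184%). At an unadjusted p under 0.05 there was 1 among the 15 comparisons, HMCN1 in the A4 clone (5.25% of all genes passed there). DESeq2 also called 0 in each of these comparisons.

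FBLN1 (ENSG00000077942.19, chromosome 22, 45502238 to 45601135, plus strand), whose protein is a cofactor of the protease ADAMTS1, measured 31.1, 56.1 and 48.2 CPM in the A1 clone. It measured 52.8, 59.9 and 67.8 CPM in the A4 clone and 54.7, 76.1 and 41.0 CPM in the empty-vector libraries. The 3 groups overlapped. FBLN1 had a log2 fold change of -0.34 (95% interval -0.91 to 0.22, adjusted p 0.808 by edgeR) in the A1 clone and 0.07 (-0.49 to 0.63, adjusted p 0.9997) in the A4 clone. The A1 value was -0.13 without replicate A of that clone. FBLN2, which encodes a partner of nidogen and fibronectin, was barely detected, with 0, 3 and 1 counts in the A1 clone, 7, 0 and 2 in the A4 clone, and 0 in every vector library. A count of 0 allows up to 0.0593 to 0.0716 CPM in the empty-vector libraries, and no fold is given.

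EFEMP2 (ENSG00000172638.13, chromosome 11, 65866441 to 65873592, minus strand), which encodes the fibulin that carries lysyl oxidase to elastic fibres, varied most among the well-counted members. It measured 7.95, 25.9 and 19.8 CPM in the A1 clone. The values were 20.7, 18.0 and 32.5 CPM in the A4 clone and 19.6, 34.8 and 12.7 CPM in the empty-vector libraries, so each group spanned much of the range of the others. Its log2 fold change was -0.32 (95% interval -1.26 to 0.62, adjusted p 0.897 by edgeR) in the A1 clone and 0.09 (-0.85 to 1.02, adjusted p 0.9997) in the A4 clone. With replicate A of the A1 clone left out, the A1 value of EFEMP2 was 0.041. The 3′ end of EFEMP2 overlaps that of MUS81 on the other strand, and 3.82 to 5.61% of its counts by group fell on the opposite strand, against 0.551 to 1.51% at FBLN1 and FBLN5. FBLN5 (ENSG00000140092.14, chromosome 14, 91869411 to 91947987, minus strand), whose protein holds an integrin-binding motif and organises elastic fibres, had group means close to each other. It measured 6.23, 12.3 and 9.92 CPM in the A1 clone, 10.3, 12.1 and 9.34 CPM in the A4 clone and 8.75, 12.1 and 9.08 CPM in the empty-vector libraries. Its log2 fold change was -0.07 (95% interval -0.69 to 0.55, adjusted p 0.974 by edgeR) and 0.09 (-0.53 to 0.71, adjusted p 0.9997). For FBLN5 the A1 value was 0.16 when replicate A of that clone was left out. Changes inside these intervals are not resolved by 3 libraries a group. FBLN7 (ENSG00000144152.13, chromosome 2, 112138385 to 112188218, plus strand) was near the limit of detection, at 1, 18 and 22 counts in the A1 clone, 19, 28 and 51 in the A4 clone and 16, 25 and 13 with vector. Its intervals, -2.10 to 1.83 in the A1 clone and -1.03 to 2.86 in the A4 clone, are too wide to read a direction. Its A1 value was 0.38 without replicate A of that clone.

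HMCN1 was higher in every A4 library than in any A1 or vector library, but did not pass edgeR's threshold. The gene (ENSG00000143341.12, chromosome 1, 185734391 to 186190949, plus strand) measured 43.7, 49.2 and 32.2 CPM in the A1 clone. In the A4 clone it measured 65.0, 82.9 and 68.6 CPM. The empty-vector libraries had 48.4, 43.6 and 42.8 CPM. The A1 and vector libraries overlapped with each other. A noncoding gene (ENSG00000224691) overlaps HMCN1 on the other strand, and the counts used here are those of the HMCN1 strand. Groups failed to overlap, in either direction, for 13.6% of all genes between the clones and 12.1% between the A4 clone and vector. The mean was 72.2 CPM ± 9.43 (SD, n = 3) in the A4 clone, 41.7 CPM ± 8.65 (SD, n = 3) in the A1 clone and 44.95 CPM ± 3.01 (SD, n = 3) in the empty-vector libraries. The A4 clone was 0.79 log2 units above the A1 clone (SE 0.194, 95% interval 0.37 to 1.21), with an unadjusted p of 0.00143 and an adjusted p of 0.249 by edgeR, which misses the threshold. By DESeq2 the adjusted p was 0.0297, the only one under 0.05 among 15 alternatives, which ranged from 0.0297 to 0.618. The fold stayed at 0.64 to 0.93 in them, and without replicate A of the A1 clone it was 0.83 (adjusted p 0.336). Against vector, the A4 clone differed by 0.68 (SE 0.193, adjusted p 0.430 by edgeR) and the A1 clone by -0.11 (SE 0.193, adjusted p 0.924). Between the clones, edgeR called 0 of the 5 fibulins tested beside EFEMP1 and 0.161% of all genes. The fitted differences of the A4 clone from the A1 clone were 0.41 (95% interval -0.15 to 0.98) for FBLN1, 0.40 (-0.54 to 1.34) for EFEMP2, 0.16 (-0.46 to 0.78) for FBLN5 and 1.05 (-0.92 to 3.01) for FBLN7. Leaving out replicate A of the A1 clone gave 0.21 for FBLN1, 0.060 for EFEMP2, -0.070 for FBLN5 and 0.54 for FBLN7. Other libraries moved them too. Without replicate C of the A4 clone the values were 0.30 for FBLN1, 0.090 for EFEMP2, 0.23 for FBLN5 and 0.54 for FBLN7. Without replicate B of the A4 clone FBLN5 was at 0.036. These 4 differences thus depend on single libraries.

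**Figure D2:**
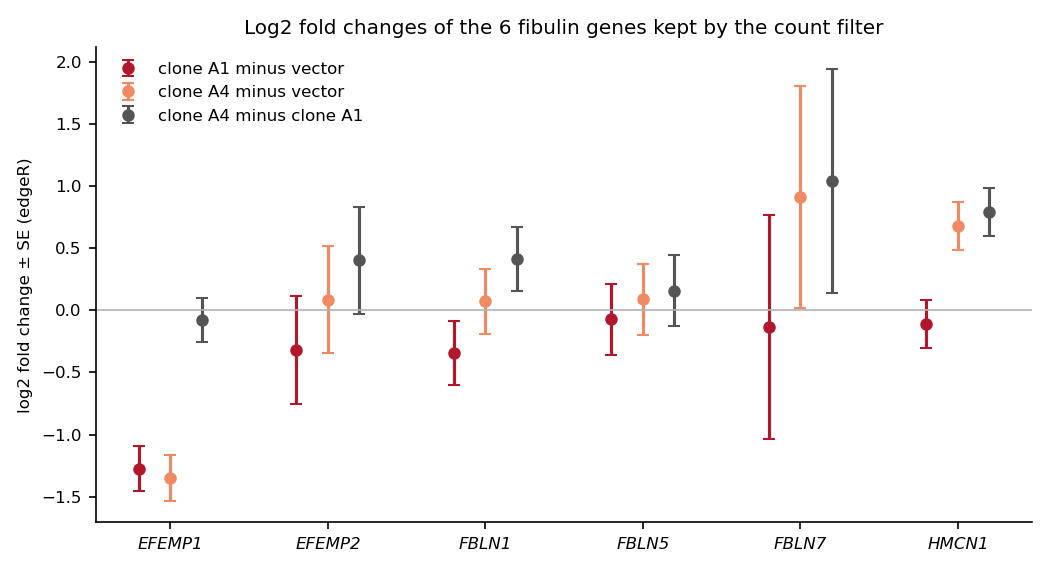
Log2 fold changes (edgeR, bars are 1 SE) of the 6 fibulin genes kept by the filter, for the A1 clone minus vector, the A4 clone minus vector and the A4 clone minus the A1 clone. EFEMP1 lay at -1.27 and -1.35 against vector and near 0 between the clones, and HMCN1 at 0.68 and 0.79 where the A4 clone is compared.

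FBLN1 and EFEMP2 varied together over the libraries, across all 3 groups. Vector replicate B had the most of both, replicate A of the A1 clone the least of both, and vector replicate C the second least. Over the 9 libraries their log2 CPM had a Pearson r of 0.950 (Spearman rho 0.783), and r was 0.891 without replicate A of the A1 clone. Other pairs also varied together, with r of 0.84 for FBLN7 with FBLN1 and with EFEMP2, 0.78 for FBLN5 with FBLN1 and 0.74 for FBLN5 with EFEMP2. Without replicate A of the A1 clone these were 0.60, 0.60, 0.48 and 0.38. The listed matrix genes LAMB2, LOXL1 and MFAP2, picked after their values were seen, had the same lowest, second lowest and highest libraries, so the pattern is not particular to the pair. This is a description, since libraries of 1 clone are not independent and share their preparation. The libraries at both ends of the pattern also stood at the ends of a library property. Rows that name no gene held 63.6% of the reads of replicate A of the A1 clone, the highest value, and 44.5% of those of vector replicate B, the lowest, while the other 7 libraries, at 48.9 to 58.1%, did not follow the order of the pair. Its part in the pattern was not tested. EFEMP1 had r of -0.07 to EFEMP2 and 0.03 to FBLN1. Both values are a description, since the gap to vector for which EFEMP1 was chosen enters into them.

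**Figure D3:**
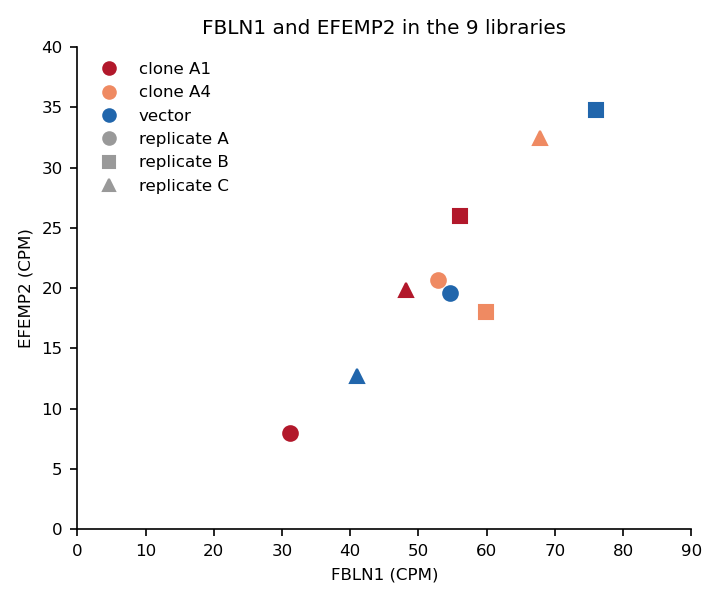
FBLN1 (x axis) against EFEMP2 (y axis) in CPM, 1 point per library, with colour for the group and shape for the replicate letter. The libraries run from 31.1 and 7.95 CPM in replicate A of the A1 clone to 76.1 and 34.8 CPM in vector replicate B, with the groups mixed between.

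The promoters of FBLN1 and EFEMP2, the pair with the highest r, are shown from RefSeq on GRCh38.p14. The table held entries for 5 of the 7 genes and none for EFEMP1 and HMCN1. The window runs from upstream of the annotated start into the first exon, and capitals mark matches to the GC box GGGCGG on either strand (CCGCCC on the printed strand), where overlapping matches run together. FBLN1 (chr22:45502633-45502932, plus strand) held 1 match and EFEMP2 (chr11:65872751-65873050, minus strand) held 6. Of 35116 windows of the same length in the table, 44.95% held at least 1 match and 9.06% held 4 or more. GC content was 78.0% for FBLN1 and 80.7% for EFEMP2, against a median of 58.7%. FBLN2, barely detected here, had a window with 7 matches and 81.0% GC, above both, and another with 0 matches and 63.3% GC. The FBLN5 windows held 3 matches (73.0% GC) and 1 match (47.3% GC), and the FBLN7 window 2 (69.3% GC). A match is a string of letters and not a measured binding site.
FBLN1: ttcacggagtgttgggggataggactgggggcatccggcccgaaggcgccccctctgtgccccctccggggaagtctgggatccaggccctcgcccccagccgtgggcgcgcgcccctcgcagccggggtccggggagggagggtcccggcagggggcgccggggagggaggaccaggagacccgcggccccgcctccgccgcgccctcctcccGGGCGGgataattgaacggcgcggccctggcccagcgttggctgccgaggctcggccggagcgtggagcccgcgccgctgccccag
EFEMP2: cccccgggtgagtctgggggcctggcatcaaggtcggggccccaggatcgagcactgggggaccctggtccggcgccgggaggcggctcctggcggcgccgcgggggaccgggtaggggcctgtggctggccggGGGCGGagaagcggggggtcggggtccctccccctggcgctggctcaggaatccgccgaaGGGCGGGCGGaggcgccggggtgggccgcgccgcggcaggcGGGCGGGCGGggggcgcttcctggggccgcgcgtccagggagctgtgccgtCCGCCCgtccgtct

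Most of the tested genes nearest to EFEMP1 on chromosome 2 measured above vector in both clones, opposite to EFEMP1, without passing the test. Of the 5 nearest tested genes on each side, 0 of 10 passed an adjusted p of 0.05 by edgeR in any of the 4 comparisons, and 8 of 10 had a fold change above 0 in each clone against vector. Over all genes, 51.6% had a fold change below 0 in the A1 clone and 46.4% in the A4 clone. Without the count filter, CCDC88A (there 1.08 and 0.77 on the log2 scale) passed by edgeR. Its adjusted p was 0.000193 in the A1 clone and 0.0484 in the A4 clone. In that setting 0.827% and 0.432% of 37715 genes passed. The median log2 fold change of the 10 was 0.62 in the A1 clone and 0.30 in the A4 clone, where the median over all genes was -0.02 and 0.03. Nearest below EFEMP1 were PNPT1, which encodes a mitochondrial RNA exonuclease, and PPP4R3B, a regulatory subunit of a protein phosphatase. PNPT1 averaged 94.5, 76.0 and 62.3 CPM in the A1 clone, the A4 clone and vector, with log2 fold changes of 0.60 (SE 0.192, adjusted p 0.403 by edgeR) and 0.29 (adjusted p 0.9997). PPP4R3B averaged 438.9, 343.4 and 276.6 CPM, with 0.67 (SE 0.228, adjusted p 0.452 by edgeR) and 0.31. CCDC88A, CFAP36 and PPP4R3B-DT, further out on that side, had log2 fold changes of 0.28 to 1.17 in the A1 clone and 0.15 to 0.78 in the A4 clone. Single libraries moved these too, CCDC88A in the A1 clone to 0.56 without its replicate A and PPP4R3B-DT to 1.89 without vector replicate B. On the other side, VRK2, FANCL and CCDC85A lay above 0 in both clones, the last at under 1 CPM in every group mean. The noncoding ENSG00000233251, at 249.4 kb, was at -0.42 and -0.71, and the pseudogene EIF3FP3 at -0.62 and -0.06. VRK2, FANCL and EIF3FP3 lie far from EFEMP1, at 1983 to 2327 kb.

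**Figure D4:**
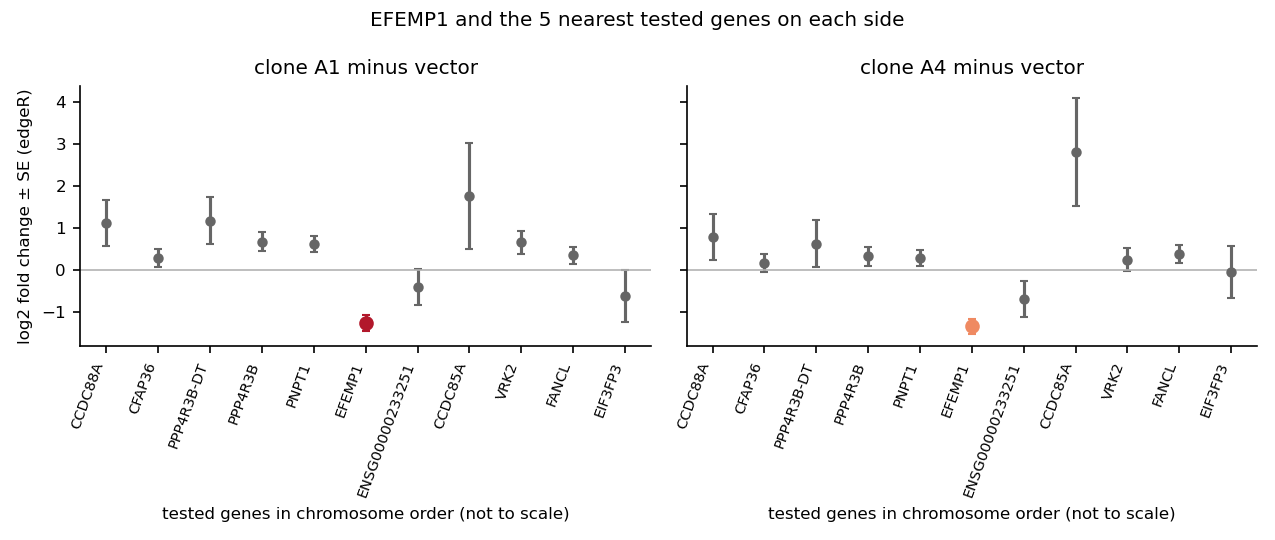
Log2 fold changes (edgeR, bars are 1 SE) of EFEMP1, in colour, and of the 5 nearest tested genes on each side, in grey and in chromosome order, for the A1 clone and the A4 clone against vector. EFEMP1 at -1.27 and -1.35 stands below its neighbours, of which 8 of 10 lie above 0 in each clone.

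The 5 genes whose levels followed EFEMP1 most closely were CNTNAP2, MRPS33, CUL1, RBM28 and ESYT2, and all of them lie on chromosome 7, between 128297685 (RBM28) and 158830253 (ESYT2). They were ranked by Pearson r of log2 CPM with EFEMP1 over the 9 libraries, among 11552 protein-coding genes with an average log2 CPM of at least 1. The values were 0.982 for CNTNAP2, 0.973 for MRPS33, 0.952 for CUL1 and 0.951 for RBM28 and ESYT2, and 32 genes reached 0.9. Of these 32, 16 (50%) lie on chromosome 7, which holds 546 of the 11552 candidates (4.73%). Without replicate A of the A1 clone, 33 of 64 genes at 0.9 or above did, and by Spearman rho 3 of 12. These values describe 9 libraries in 3 groups, where any gene lower in both clones can rank high. CNTNAP2, a neuronal adhesion gene, measured 27.4, 25.5 and 21.9 CPM in the A1 clone and 18.5, 23.3 and 20.2 CPM in the A4 clone. It had 84.4, 47.8 and 72.9 CPM in the empty-vector libraries. Its order among the vector clones, A over C over B, was that of EFEMP1. MRPS33, CUL1 and RBM28 had the same order and ESYT2 did not. The ranking by r used these same libraries, so a shared order partly follows from it. MRPS33, a mitochondrial ribosome subunit, measured 24.9, 18.7 and 19.2 CPM in the empty-vector libraries and at most 14.5 CPM in the NCBP2 libraries. CUL1, the scaffold of an SCF ubiquitin ligase, measured 48.2 to 68.4 CPM in the empty-vector libraries and 29.3 to 37.9 CPM in the NCBP2 libraries. For the NCBP2 arm, CNTNAP2 had a log2 fold change of -1.58 (SE 0.191), and MRPS33, CUL1, the nucleolar RNA-binding protein gene RBM28 and the membrane tether gene ESYT2 had values of -0.50 (ESYT2) to -0.71 (CUL1). By Spearman rho, 1 of the 5 stayed in the top 5, and without replicate A of the A1 clone, 2 did.

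**Figure D5:**
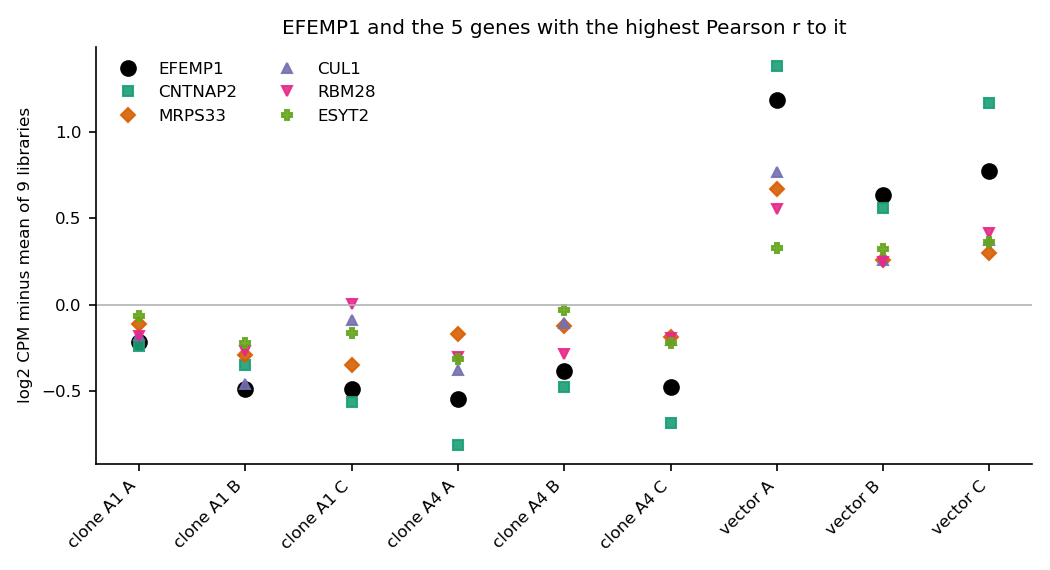
Log2 CPM of EFEMP1 (black) and of the 5 genes with the highest Pearson r to it, each minus its own mean over the 9 libraries, by library. In each vector library all 6 genes lie above their means, and EFEMP1 is highest in vector replicate A.

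Genes for fibulin binding partners and for the matrices fibulins belong to showed no calls in the main edgeR fit. The lists held 23 elastic fibre genes, 15 fibulin partners and 26 basement membrane genes, of which 20, 14 and 25 could be tested. In each of the 4 comparisons 0 passed an adjusted p of 0.05. At an unadjusted p under 0.05 there were 3, 4 and 1 for the NCBP2 arm (5.71% of all genes passed there). These counts were 2, 4 and 2 in the A1 clone and 3, 2 and 1 in the A4 clone (5.25% of all genes). Between the clones they were 3, 6 and 3. There, 3, 4 and 2 lay wholly higher in the A4 clone and 0, 1 and 4 wholly lower (13.6% of all genes, either direction). In the A1 clone 2, 4 and 1 lay under all vector libraries (8.06% of all genes) and 2, 1 and 0 above them. The median log2 fold changes for the NCBP2 arm were -0.12, -0.14 and -0.05, against 0.02 over all genes. In the A1 clone the medians were -0.31, -0.38 and -0.15, and in the A4 clone they were 0.09, -0.18 and -0.02. DESeq2 called 2 listed genes in the NCBP2 arm and 4, 3 and 1 in the A1 clone, the A4 clone and between the clones. Of the genes to which it gave an adjusted p, it called 0.526%, 1.26%, 1.01% and 1.14% in the same order.

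Among the partners, EGFR, a receptor that the EFEMP1 protein is reported to bind, lay lower in every NCBP2 library. It measured 12.8, 10.9 and 15.05 CPM in the A1 clone, 7.72, 8.10 and 10.4 CPM in the A4 clone and 19.2, 27.7 and 23.0 CPM in the empty-vector libraries. The groups do not overlap, as for 3.74% of all genes in the NCBP2 arm. EGFR had a log2 fold change of -1.11 (SE 0.234, adjusted p 0.198 by edgeR) for the arm, -0.85 (adjusted p 0.321) in the A1 clone and -1.42 (SE 0.241, adjusted p 0.0526) in the A4 clone. By DESeq2 the adjusted p was 0.00558 for the arm, 0.0466 in the A1 clone and 5.6e-06 in the A4 clone. Over all 15 alternatives the adjusted p in the A4 clone ran from 5.6e-06 to 0.352, and leaving out replicate A of the A1 clone gave 0.0459 (log2 fold change -1.41). In the arm it ran from 0.00558 to 0.99999 and in the A1 clone from 0.0466 to 0.709. The EFEMP1 partner TIMP3, which the naming rule does not reach, measured 115.0 to 153.0 CPM in the A1 clone, 94.8 to 174.3 CPM in the A4 clone and 144.4 to 207.4 CPM in the empty-vector libraries, with overlap (log2 fold change -0.48, SE 0.189, adjusted p 0.761 by edgeR for the arm). COL15A1, a collagen gene of the basement membrane zone, was at 1.66 (SE 0.849, adjusted p 0.916 by edgeR) in the arm, at most 1.63 CPM by group mean. It moved to 2.75 without vector replicate B and to 1.13 without vector replicate C.

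Of the elastic fibre genes, EMILIN1, an elastin-binding glycoprotein, had the largest fold in the arm, 1.55 (SE 0.635, adjusted p 0.789 by edgeR). It measured 0.493 to 0.635 CPM in the A1 clone, 1.30 to 2.24 CPM in the A4 clone and 0.282 to 0.546 CPM in the empty-vector libraries. The A4 clone thus stood above both other groups. Groups failed to overlap, in either direction, for 13.6% of all genes between the clones and 12.1% between the A4 clone and vector. EMILIN1 had only 13 to 100 counts per library. Its log2 fold change in the A4 clone was 2.14 (SE 0.559, adjusted p 0.349 by edgeR), and 0.0107 by DESeq2, within a range of 0.0107 to 1 over the alternatives. FBN3 and ADAMTSL2, the next by size, had at most 0.527 CPM in any group mean. Of the basement membrane genes, COL4A6, LAMA4 and LAMA3 had the largest folds, at -1.13, -0.99 and -0.75 for the arm. LAMA3 stood at -0.28 without vector replicate B and at -1.13 without vector replicate A. The laminin chain LAMA4 averaged 3.30 CPM ± 1.44 in the A1 clone, 2.71 CPM ± 0.454 in the A4 clone and 5.95 CPM ± 1.81 in the empty-vector libraries (SD, n = 3 each), with an adjusted p of 0.629 by edgeR for the arm. COL4A6, a basement membrane collagen chain, averaged 0.326 CPM over the 6 NCBP2 libraries and 0.718 CPM in the empty-vector libraries, without overlap. Groups failed to overlap for 3.74% of all genes in the arm. COL4A6 had only 7 to 43 counts per library and an adjusted p of 0.931 by edgeR for the arm.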

How the data were processed

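Total RNA libraries of 9 U2-OS samples were made with a ribosomal RNA depletion kit, per the labels' protocols, although the molecule field names polyadenylated RNA. STAR 2.7.1a and GRCh38 are named in the submitters' processing notes, and the annotation is not given in the sources used here. The deposited files hold raw counts per gene, as whole numbers, without strand (column 2) and per strand (columns 3 and 4). Column 3 held most stranded counts and was taken as the sense strand. The opposite strand held 5.51 to 6.42%. The 4 opening rows that name no gene (44.5 to 63.6% of reads) were left out.

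Identifiers were matched to GENCODE release 44 on GRCh38 without their version (60295 of 60609). Reads with several alignments are not counted. edgeR 4.0.16 (R 4.3.3) was run on all genes with filterByExpr, TMM and the robust quasi-likelihood test, as 2 groups for the NCBP2 arm and as 3 groups for the clones. The SE is the log2 fold change over the root of F. CPM used TMM-scaled library sizes, and log2 CPM a prior count of 2. Adjusted p is Benjamini-Hochberg over 21682 genes. The fits were run on simulated counts that varied less than these libraries, so that run does not give their error rate or power here. In the measured counts the common biological coefficient of variation was 0.411 with 3 groups. DESeq2 1.42.0 was an alternative, as were its size factors, no count filter, unstranded counts, each library left out, a replicate block, counts summed per clone and only the 6 libraries compared.

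Named genes are the 7 members, the 5 genes with the highest r to EFEMP1, its 5 nearest tested genes per side, and listed genes that passed or had the 3 largest folds for the arm. The members and lists were chosen with earlier results of these data known. One gene that this rule names is not reported here.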

Additional observations from a re-analysis of the deposited data

How the results depend on the processing

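The log2 fold change of EFEMP1 against vector stayed below 0 in each of 15 alternatives, from -1.42 to -1.15 for the NCBP2 arm, -1.38 to -1.11 in the A1 clone and -1.47 to -1.19 in the A4 clone. The sign was set by the choice of EFEMP1 as lower in both clones, so these ranges describe only the size. Fold changes near 0 turned in sign when single libraries were left out. For the NCBP2 arm the range was -0.41 to 0.37 for EFEMP2, -0.087 to 0.17 for FBLN5 and -0.33 to 0.14 for FBLN1. In the A1 clone the range was -0.69 to 0.16 for EFEMP2, -0.31 to 0.16 for FBLN5, -0.54 to 0.38 for FBLN7 and -0.26 to 0.043 for HMCN1. In the A4 clone the range was -0.041 to 0.25 for FBLN5, -0.23 to 0.55 for EFEMP2, -0.14 to 0.33 for FBLN1, -0.035 to 0.28 for CFAP36, -0.030 to 0.47 for VRK2 and -0.45 to 0.18 for EIF3FP3. Between the clones the range was -0.13 to 0.019 for EFEMP1 and -0.070 to 0.39 for FBLN5. Counts without regard to strand moved FBLN5 to -0.031 for the NCBP2 arm and EFEMP2 to -0.011 in the A4 clone, and no count filter moved FBLN5 to -0.0055 for the arm. The causes were not tested.

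The other fibulins gave 0 calls under each alternative, except that DESeq2 called 1 between the clones (HMCN1). Of the listed matrix genes, none called in the main edgeR fit, DESeq2 called 2 in the NCBP2 arm, 4 in the A1 clone, 3 in the A4 clone and 1 between the clones. Without the count filter the numbers were 1, 3, 3 and 4, over 37715 genes in place of 21682. Leaving out single libraries gave 0 to 1 in the A4 clone. The causes were not tested. Calls over all genes were 4, 14, 25 and 35 by edgeR, 103, 274, 185 and 246 by DESeq2, and 20, 312, 163 and 231 without the filter.

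The letters A, B and C recur in each group. Deviations from the group means correlated at -0.10 to 0.18 between libraries of the same letter, and not every library correlated best with its own letter, so the letters were not taken as pairs. With the letter as a replicate block, 13, 38, 53 and 51 of all genes were called, and the listed matrix genes gave 0 for the NCBP2 arm and 1 each in the A1 clone (LTBP2), the A4 clone (EGFR) and between the clones (CCN3). EFEMP1 under this replicate block stood at -1.27 in the A1 clone and -1.33 in the A4 clone.

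Depth limits FBLN7 (193 counts in all libraries) and FBLN2 (13). With counts summed per clone (2 NCBP2 clones against 3 vector clones) edgeR called 0 of all genes in the arm.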

Other observations

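Microfibril genes outside the naming rule were picked once their values were known. MFAP5, a microfibril-associated glycoprotein, measured 36.9 to 49.5 CPM in the A1 clone, 31.2 to 55.9 CPM in the A4 clone and 71.9 to 88.1 CPM in the empty-vector libraries. All 6 NCBP2 libraries lay under the 3 vector libraries, with a log2 fold change of -0.89 (SE 0.180, adjusted p 0.176 by edgeR) for the NCBP2 arm, and an adjusted p of 0.00679 by DESeq2 (0.00679 to 0.99999 over the alternatives). Groups did not overlap for 3.74% of all genes in this arm. LTBP2, a microfibril protein known to bind the FBLN5 protein, averaged 120.2 CPM ± 26.6 in the A1 clone, 186.0 CPM ± 40.9 in the A4 clone and 261.2 CPM ± 34.8 in the empty-vector libraries (SD, n = 3 each). Its log2 fold change in the A1 clone was -1.12 (SE 0.211, adjusted p 0.105 by edgeR, 6.0e-05 to 0.388 over the alternatives). HMCN2, the paralog of HMCN1, had 0 to 27 counts per library.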
